A study of Bos taurus with 18 samples.

Results

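ANGPT1, TEK, UNC5B, SELP and ROR1 are 5 genes of angiopoietin signalling, vascular guidance, endothelial adhesion and Wnt reception. They were read in RNA sequencing counts from a bovine endometrium-on-a-chip. The genes were listed by symbol and matched to Ensembl identifiers through the study's own lists of genes altered by treatment. All 5 were found among the 36075 genes of the count table, and all 5 passed the filter on low counts, which kept 17931 genes. Their identifiers are ENSBTAG00000014051 (ANGPT1), ENSBTAG00000020148 (TEK), ENSBTAG00000014270 (UNC5B), ENSBTAG00000020755 (SELP) and ENSBTAG00000012312 (ROR1). The pairing of these 5 symbols with identifiers comes from the list for rbCAPG against vehicle in epithelial cells, so the values of that comparison are given as a description and not as independent evidence.

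Primary bovine endometrial epithelial cells (bEECs) and stromal cells (bESCs) were grown on opposite faces of a porous membrane, the bEECs under flow and the bESCs in a static chamber. The medium passing the bEECs carried PBS as vehicle control (VC), or 1 of 2 recombinant bovine proteins at 1 ug/mL, CAPG (rbCAPG) or PDI (rbPDI), for 24 h. CAPG is an actin-capping protein and PDI a protein disulphide isomerase, and the study examined both as signals from the conceptus. Each of the 6 groups held 3 samples, replicates 1 to 3 from the late-luteal tracts of 3 animals. The device was built from epithelial and stromal cells, without a layer of endothelial cells, and bESCs met the added protein only from the other side of the membrane.

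ANGPT1 is a secreted ligand that activates TEK, also known as TIE2, a receptor tyrosine kinase best known from endothelial cells, where the pair stabilises vessels. UNC5B is a netrin receptor that gives repulsive cues to growing axons and to sprouting vessels. SELP, or P-selectin, is an adhesion receptor stored in endothelial cells and platelets that catches passing leukocytes at the vessel wall. ROR1 is a receptor for Wnt ligands of the non-canonical kind, prominent in embryonic and mesenchymal cells. The endometrium renews and remodels its vessels with each cycle and in early pregnancy.

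Total counts were between 10072851 and 44253149 per sample, and the library of rbPDI bESCs, replicate 1, had the fewest. MUC1 and OCLN, the 2 of 8 epithelial markers with an identifier, summed to 0.351 to 3.98 CPM (library-size normalised counts) in bESCs. In bEECs that sum was 325 to 547 CPM with VC, 770 to 825 CPM with rbCAPG and 722 to 883 CPM with rbPDI, so that it too was higher in treated samples. The rise lay in MUC1, at 236 to 443 CPM with VC and 608 to 772 CPM in treated bEECs. OCLN overlapped, at 85.6 to 105 CPM with VC and 89.0 to 118 CPM in treated bEECs. COL6A1, VCAN, HAND2 and ZEB1, the 4 of 12 stromal markers with an identifier, summed to 175 to 346 CPM in bESCs. In bEECs that sum was 6.13 to 13.5 CPM with VC, 15.2 to 44.2 CPM with rbCAPG and 10.4 to 30.8 CPM with rbPDI. For endothelial cells, 0 of 12 markers had an identifier, and for platelets and megakaryocytes 0 of 5, so those cells could not be looked for. The leukocyte markers CD14 and AIF1, 2 of 5, summed to 12.7 to 21.0 CPM in VC bEECs, 44.7 to 58.4 CPM with rbCAPG and 53.0 to 71.5 CPM with rbPDI. These markers were themselves readable only because the study lists them as altered, and too few of each marker list could be read, so the check of cell types is void. In bulk samples, fewer cells of a type and less RNA per cell cannot be told apart.

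At baseline, all 5 genes were lower in bEECs than in bESCs. SELP, the adhesion receptor, was at 2.96, 3.62 and 1.47 CPM in the 3 VC bEEC samples and at 116, 156 and 214 CPM in the 3 VC bESC samples. Every stromal sample was far above every epithelial one, and the log2 difference in expression of bEECs from bESCs was -5.92 (SE 0.77, edgeR adjusted p = 1.07e-05). ROR1, the Wnt receptor, had 0, 9 and 5 counts in VC bEECs (0, 0.288 and 0.150 CPM) against 115, 338 and 426 counts in VC bESCs (5.07, 6.97 and 9.13 CPM). The difference of ROR1 was -5.58 (SE 0.68, edgeR adjusted p = 5.66e-06), again with no overlap.

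ANGPT1, the ligand, was at 0.121, 0.256 and 0.179 CPM in VC bEECs and at 1.98, 2.95 and 0.643 CPM in VC bESCs, where replicate 3 was the lowest. The groups did not overlap, and the log2 difference was -3.30 (SE 0.60, edgeR adjusted p = 2.97e-04). For TEK, its receptor, VC bEECs held 1, 4 and 2 counts, or 0.0302, 0.128 and 0.0598 CPM, and VC bESCs held 4, 23 and 12 counts, or 0.176, 0.475 and 0.257 CPM. TEK was therefore barely detected in either cell type with vehicle, although the groups did not overlap. Its log2 difference was -2.05 (SE 0.72, edgeR adjusted p = 0.0280), and the call was lost without VC bEEC replicate 1 or 3 or VC bESC replicate 2, with adjusted p = 0.0998, 0.0877 and 0.122.

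UNC5B, the netrin receptor, stood closest in level between the cell types, at 4.56, 4.39 and 5.59 CPM in VC bEECs and 5.55, 9.51 and 22.6 CPM in VC bESCs. The lowest stromal sample lay just under the highest epithelial one, and the log2 difference was -1.38 (SE 0.46, edgeR adjusted p = 0.0220). Its call was lost without VC bEEC replicate 1 or 2, with adjusted p = 0.0604 and 0.0686, and without VC bESC replicate 3, where the difference was -0.63 and adjusted p = 0.244. All 5 genes were thus called lower in bEECs, meaning an adjusted p under 0.05 with a log2 difference beyond 1, in a comparison in which 38.5% of all genes tested were called in either direction and 18.9% lower. Such a share makes a call in this comparison common among all genes. The VC bEEC samples are also those of the comparison from which the genes were listed, so the choice of genes favoured low values in them.

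**Figure D1:**
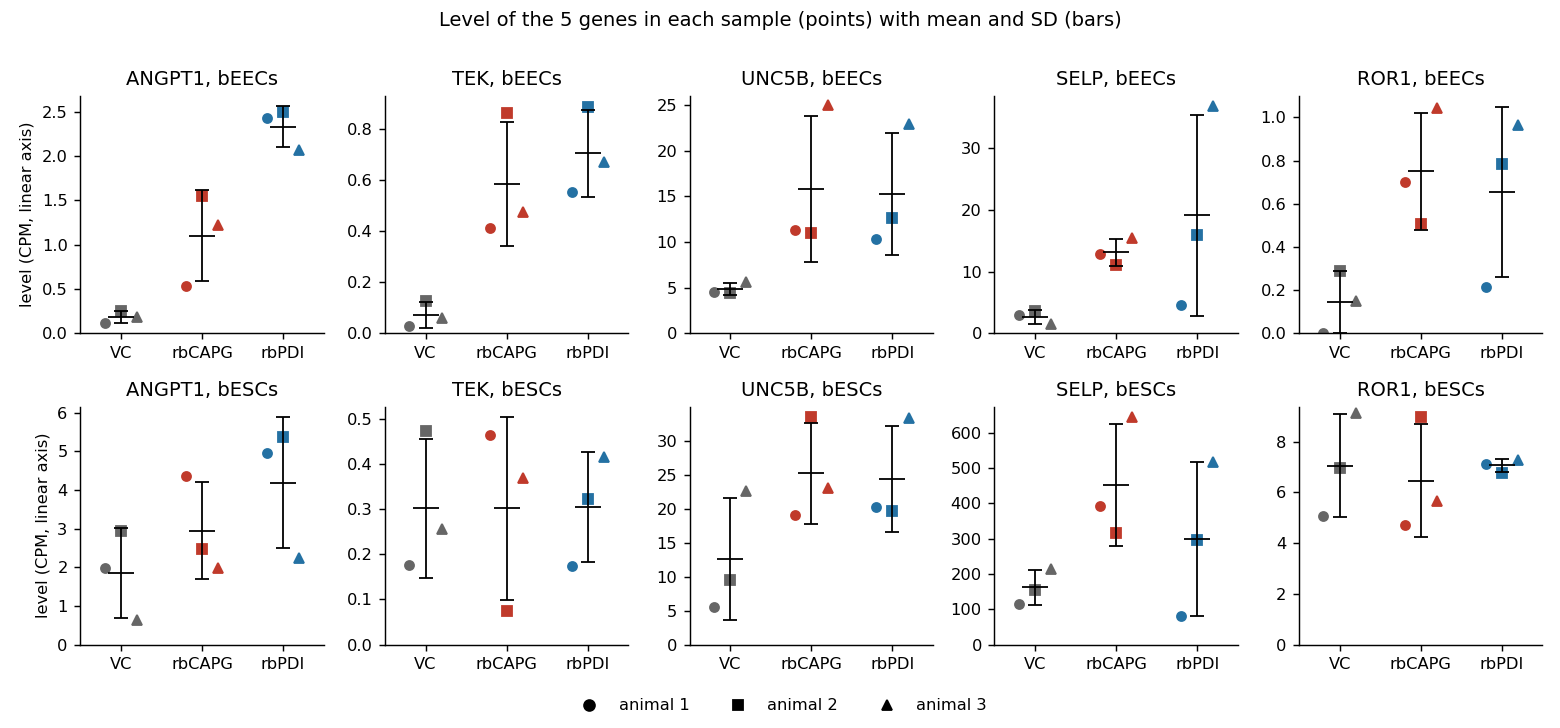
Expression level (CPM, linear axes from 0, each panel with its own scale) of the 5 genes in each of the 18 samples, bEECs above and bESCs below; points are samples with 1 symbol per animal, and the black bars give the mean and SD of 3 samples. In bEECs the VC samples lie below all rbCAPG samples for all 5 genes, whereas in bESCs the treated and VC samples overlap except for SELP with rbCAPG.

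Exposure of bEECs to rbPDI was followed by higher ANGPT1 and TEK, the ligand and its receptor. ANGPT1 was at 2.43, 2.49 and 2.07 CPM with rbPDI (57, 73 and 77 counts, against 4, 8 and 6 with VC). The 3 treated samples lay close together, with a mean of 2.33 ± 0.229 CPM (SD, n = 3) against 0.185 ± 0.0678 CPM with VC (SD, n = 3), and the groups were far apart. ANGPT1 rose by 12.4-fold, a log2 fold change of 3.63 (SE 0.61, 95% interval 2.34 to 4.92, edgeR adjusted p = 0.00488). It rose in each of the 3 animals, by 3.03 to 3.80 on the log2 scale. The call was kept with each single sample left out, but without all samples of 1 animal adjusted p was 0.134, 0.113 and 0.0544.

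TEK was at 0.554, 0.888 and 0.671 CPM in bEECs with rbPDI, from 13, 26 and 25 counts. All 3 samples were above the 3 VC samples, whose highest was 0.128 CPM. The log2 fold change was 3.23 (SE 0.72, 95% interval 1.70 to 4.75, edgeR adjusted p = 0.0442), with each animal higher by 2.35 to 2.81. This call stood close to the threshold: with any 1 of the 6 samples left out, adjusted p lay between 0.0698 and 0.246, while the log2 fold change stayed between 2.87 and 3.87. The values of TEK rest on few counts, and 2 of its 18 deposited values were fractions.

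The other 3 genes were higher on average with rbPDI in bEECs but were not called. SELP was at 4.52, 16.0 and 36.8 CPM, a wide spread in which replicate 1 lay just above the highest VC sample and replicate 3 was the highest of all 9 bEEC samples. Its log2 fold change was 2.84 (SE 0.68, edgeR adjusted p = 0.0655), and without rbPDI replicate 1 it was 3.30, with adjusted p = 0.0149. UNC5B was at 10.4, 12.7 and 22.9 CPM, all above VC, with a log2 fold change of 1.66 (SE 0.47, edgeR adjusted p = 0.135). ROR1 was at 0.213, 0.785 and 0.966 CPM, where replicate 1, with 5 counts, fell within the range of VC, and the log2 fold change was 2.19 (SE 0.67, edgeR adjusted p = 0.201).

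In all, 2 of the 5 genes were called for rbPDI in bEECs, where 0.809% of all genes tested were called, and 4 of 5 lay above VC with no overlap, where 8.06% of all genes did. This comparison uses the same VC samples as the rbCAPG comparison from which the genes were listed, so low values in those samples enter both. With the animal as a block in the model, which pairs the treated and VC samples of an animal, 4 of the 5 genes were called, against 2.96% of all genes. UNC5B (adjusted p = 0.0126) and SELP (adjusted p = 0.0333) were added, and ROR1 stayed out (adjusted p = 0.0672). By DESeq2 all 5 were called, against 1.28% of all 29808 genes it tested, a larger set that includes genes of low count. DESeq2 is also the method by which the study made its lists.

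With rbCAPG in bEECs, the comparison used for listing, each gene lay above VC in all 3 samples and 0 of 5 were called by edgeR without a block, against 0.513% of all genes tested, and 5 of 5 had an unadjusted p under 0.05, as 7.21% of all genes did. Of all genes, 8.72% lay above VC without overlap, as these 5 did. By DESeq2 all 5 were called, against 0.906% of all genes. The study made its lists by DESeq2 with a local fit, the setting also used here, so these DESeq2 calls were largely fixed by the choice of genes. TEK had the highest log2 fold change of the 5. Its treated samples stood at 0.413, 0.865 and 0.477 CPM, all higher than VC, with a log2 fold change of 2.97 (SE 0.72, edgeR adjusted p = 0.0993). ANGPT1 was at 0.537, 1.55 and 1.22 CPM, with replicate 1 the lowest, and its log2 fold change was 2.57 (SE 0.60, edgeR adjusted p = 0.0838). The receptor and its ligand thus both lay higher in each animal, by 2.19 to 2.43 for TEK and 1.74 to 2.43 for ANGPT1 on the log2 scale.

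SELP was at 12.8, 11.1 and 15.5 CPM with rbCAPG, a much narrower range than with rbPDI, and its log2 fold change was 2.29 (SE 0.66, edgeR adjusted p = 0.201). ROR1 was at 0.703, 0.507 and 1.04 CPM, with a log2 fold change of 2.35 (SE 0.67, edgeR adjusted p = 0.193). UNC5B was at 11.4, 10.9 and 25.0 CPM, with replicate 3 well above the other 2, as it was with rbPDI, and its log2 fold change was 1.70 (SE 0.47, edgeR adjusted p = 0.165). With the animal as a block, 4 of the 5 were called, against 2.19% of all genes. These were ANGPT1 (adjusted p = 0.00928), UNC5B (adjusted p = 0.0159), TEK (adjusted p = 0.0445) and ROR1 (adjusted p = 0.0475), and SELP was not called (adjusted p = 0.0621). Nothing is read from these counts, since the genes come from the study's list for this comparison.

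**Figure D2:**
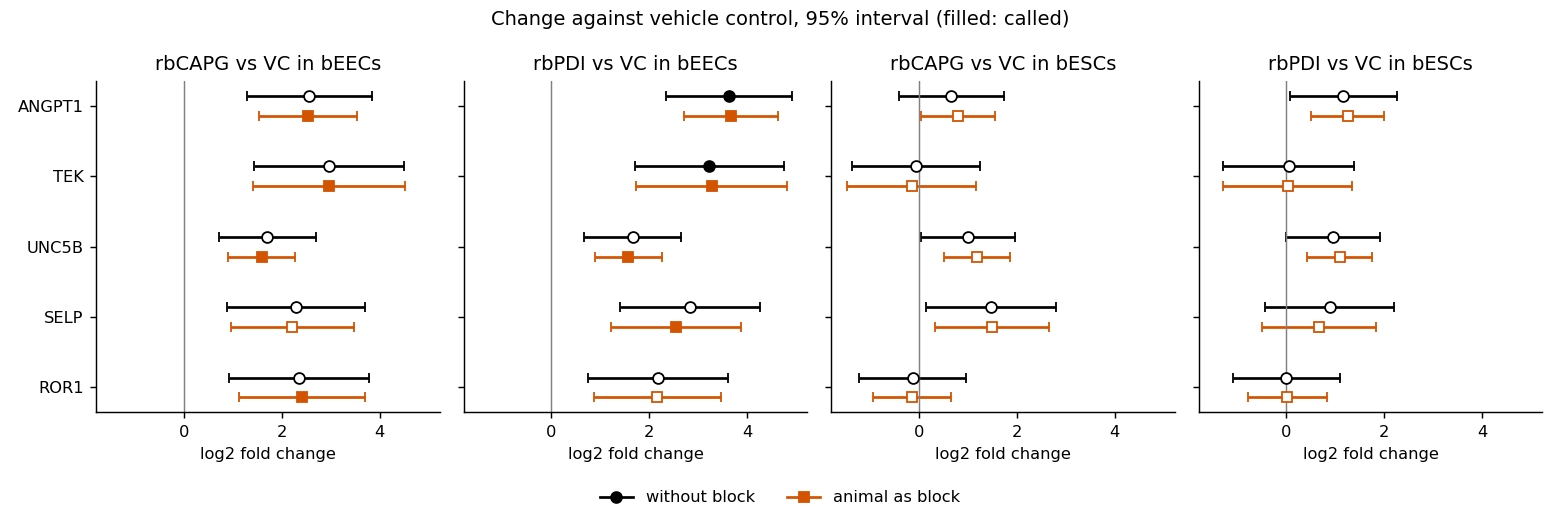
Log2 fold change of each gene against VC with its 95% interval, for both proteins in both cell types; black circles are without a block, orange squares with the animal as a block, and filled symbols are called. ANGPT1 and TEK are called with rbPDI in bEECs without a block, 4 genes are called with each protein in bEECs with the block, and 0 in bESCs.

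In bESCs, on the far side of the membrane, 0 of the 5 genes were called with either protein, with or without the block, where 0.0948% of all genes tested were called for rbCAPG and 0.178% for rbPDI. Without the block, 2 of 5 had an unadjusted p under 0.05 for rbCAPG and 1 of 5 for rbPDI, beside 2.74% and 5.3% of all genes. By DESeq2, 0 of 5 were called as well, where 0.238% and 0.587% of all genes were. These comparisons share no sample with the one used for listing.

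SELP was the only one of the 5 whose treated bESC samples all lay above VC, with rbCAPG. It was at 392, 316 and 646 CPM against 116, 156 and 214 CPM, with a log2 fold change of 1.48 (SE 0.63, 95% interval 0.15 to 2.81, edgeR adjusted p = 1.00). Of all genes tested, 3.02% lay above VC without overlap in this comparison. With rbPDI, SELP in bESCs was at 82.0, 296 and 517 CPM, so that replicate 1 was below all VC samples and the other 2 above them. The log2 fold change was 0.88 (SE 0.62) with all samples and 1.31 without rbPDI replicate 1, the smallest library.

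UNC5B in bESCs was at 19.1, 33.5 and 23.0 CPM with rbCAPG and 20.2, 19.6 and 33.4 CPM with rbPDI. Only VC replicate 3, at 22.6 CPM, reached into these ranges, and the log2 fold changes were 1.00 (SE 0.45, edgeR adjusted p = 1.00) and 0.95 (SE 0.45, edgeR adjusted p = 0.944). ANGPT1 in bESCs was at 4.37, 2.49 and 1.98 CPM with rbCAPG, a log2 fold change of 0.66 (SE 0.51, edgeR adjusted p = 1.00). With rbPDI it was at 4.96, 5.38 and 2.24 CPM, higher than VC in each of 3 animals, and the log2 fold change was 1.17 (SE 0.51, edgeR adjusted p = 0.875).

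TEK and ROR1 gave fitted changes near 0 in bESCs. TEK had 17, 4 and 16 counts with rbCAPG and 2, 15 and 18 with rbPDI, and its log2 fold changes were -0.06 (95% interval -1.37 to 1.25) and 0.05 (95% interval -1.29 to 1.39). The samples of all 3 groups were mixed in order, and the intervals still allow more than a doubling. ROR1 was at 4.73, 8.98 and 5.68 CPM with rbCAPG and at 7.13, 6.76 and 7.29 CPM with rbPDI. Its log2 fold changes were -0.13 (95% interval -1.22 to 0.96) and -0.00 (95% interval -1.10 to 1.09), and all 3 rbPDI samples lay inside the range of VC.

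**Figure D3:**
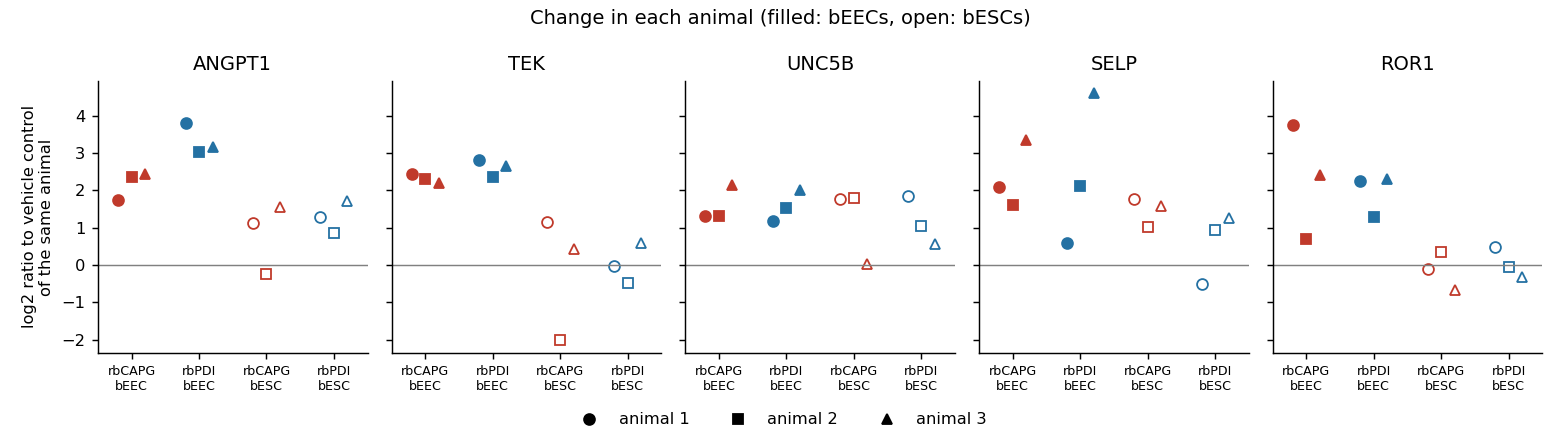
Log2 ratio of each treated sample to the VC sample of the same animal and cell type, computed on CPM with a prior count of 2; filled symbols are bEECs, open symbols bESCs, and symbol shape gives the animal. In bEECs all ratios are above 0 for all 5 genes, and in bESCs TEK and ROR1 scatter on both sides of 0.

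Whether a gene changed differently in the 2 cell types was tested by the interaction of treatment and cell type. The interaction was above 0 for all 5 genes with both proteins, and 0 of 5 were called with either, where 0.0669% of all genes tested were called for rbCAPG and 0.0948% for rbPDI. Without a block, 3 of 5 had an unadjusted p under 0.05 for rbCAPG and 4 of 5 for rbPDI, beside 3.42% and 4.72% of all genes. The interaction for rbCAPG contains the comparison used for listing and that for rbPDI its VC bEEC samples, so these counts are in part fixed by the choice of genes. DESeq2 called 0 of 5 in both, where it called 0.158% and 0.285% of all genes. TEK gave the largest terms, 3.02 (95% interval 1.01 to 5.04, edgeR adjusted p = 1.00) for rbCAPG and 3.18 (95% interval 1.15 to 5.20, edgeR adjusted p = 0.554) for rbPDI. UNC5B gave the smallest, 0.70 and 0.71, with intervals from -0.65 to 2.06 and from -0.65 to 2.07, and both fell to just under 0 (-0.0570 and -0.0307) without VC bESC replicate 3. Without all samples of animal 3 they were -0.50 and -0.0230. The changes in the 2 cell types are therefore not shown to differ for any of the 5 genes.

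The 2 proteins were compared directly as well. Between rbPDI and rbCAPG, 0 of 5 genes were called in either cell type by edgeR or DESeq2, and 0% of all genes tested were called. Without a block, 103 genes (0.574%) in bEECs and 319 (1.78%) in bESCs had an unadjusted p under 0.05, with 0 of the 5 among them. ANGPT1 came nearest in bEECs, where all 3 rbPDI samples (2.07 to 2.49 CPM) lay above all 3 rbCAPG samples (0.537 to 1.55 CPM). That log2 difference was 1.06 (95% interval -0.04 to 2.17, edgeR adjusted p = 1.00), in a comparison in which 2.14% of all genes were higher without overlap. With the animal as a block it was 1.13 (95% interval 0.34 to 1.93, edgeR unadjusted p = 0.00839), and ANGPT1 was again not called. Without a block, the intervals of the other 4 genes in bEECs ran from -0.78 to 1.87 for SELP, -1.02 to 1.54 for TEK, -0.997 to 0.913 for UNC5B and -1.39 to 1.06 for ROR1.

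Ordered by mean level, the 6 groups took a different order for each gene. For ANGPT1 the order was VC bEECs, rbCAPG bEECs, VC bESCs, rbPDI bEECs, rbCAPG bESCs and rbPDI bESCs, and only the lowest 2 neighbours did not overlap. For TEK, VC bEECs were lowest (0.0727 ± 0.0502 CPM, SD, n = 3) and the 3 bESC groups followed at nearly equal means of 0.303 to 0.305 CPM. Above them came rbCAPG bEECs (0.585 ± 0.244 CPM, SD, n = 3) and rbPDI bEECs (0.704 ± 0.169 CPM, SD, n = 3). TEK was the one gene of the 5 whose mean in both treated bEEC groups was higher than in all 3 bESC groups, and that difference between cell types was not tested.

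UNC5B rose in the order VC bEECs, VC bESCs, rbPDI bEECs, rbCAPG bEECs, rbPDI bESCs and rbCAPG bESCs, and every pair of neighbours overlapped. SELP had all bEEC groups below all bESC groups, with gaps between VC and rbCAPG bEECs and between rbPDI bEECs and VC bESCs. ROR1 likewise had its single gap between the bEEC groups, which reached 1.04 CPM, and the bESC groups, which began at 4.73 CPM.

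Each gene's level in a bEEC sample was also expressed as a percentage of its mean in bESCs with the same treatment. For comparison, 49 genes with at least 100 CPM in bESCs and at least 50 times less in bEECs were summed, a set chosen after the data were seen, whose low share in bEECs is fixed by that choice. Their sum in bEECs was 0.365% to 0.950% of the bESC mean with VC, 0.828% to 1.67% with rbCAPG and 0.615% to 1.72% with rbPDI. It was thus higher in treated than in VC samples on the whole, with VC replicate 2 inside the treated range. The bESC mean with rbPDI includes replicate 1, the smallest library, where the sum was 41727 CPM, against 121081 CPM in replicate 2 and 138920 CPM in replicate 3. That low value raises the rbPDI shares of the 49 genes.

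TEK was at 9.99% to 42.3% of the bESC level with VC, 137% to 286% with rbCAPG and 182% to 291% with rbPDI. ANGPT1 was at 6.50% to 13.8%, 18.2% to 52.6% and 49.3% to 59.4%, and UNC5B at 34.9% to 44.5%, 43.4% to 99.3% and 42.4% to 93.9%. All 3 genes were well above the share of the 49 genes in every bEEC sample, a share kept low by how those 49 were chosen. SELP stood nearest to them, at 0.905% to 2.23% with VC, 2.45% to 3.43% with rbCAPG and 1.51% to 12.3% with rbPDI. The bESC mean of SELP with rbPDI is likewise lowered by replicate 1, at 82.0 CPM against 296 and 517 CPM.

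ROR1 was at 0% to 4.08% with VC, 7.84% to 16.1% with rbCAPG and 3.02% to 13.7% with rbPDI. Among the rbPDI samples, replicate 1 had the lowest SELP, ROR1, UNC5B and share of the 49 genes, and replicate 3 the highest of each. Among the rbCAPG samples, replicate 2 was lowest and replicate 3 highest in all 4. ANGPT1 and TEK did not follow this order. What part RNA from stromal cells had in the levels of these genes in bEECs was not tested.

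**Figure D4:**
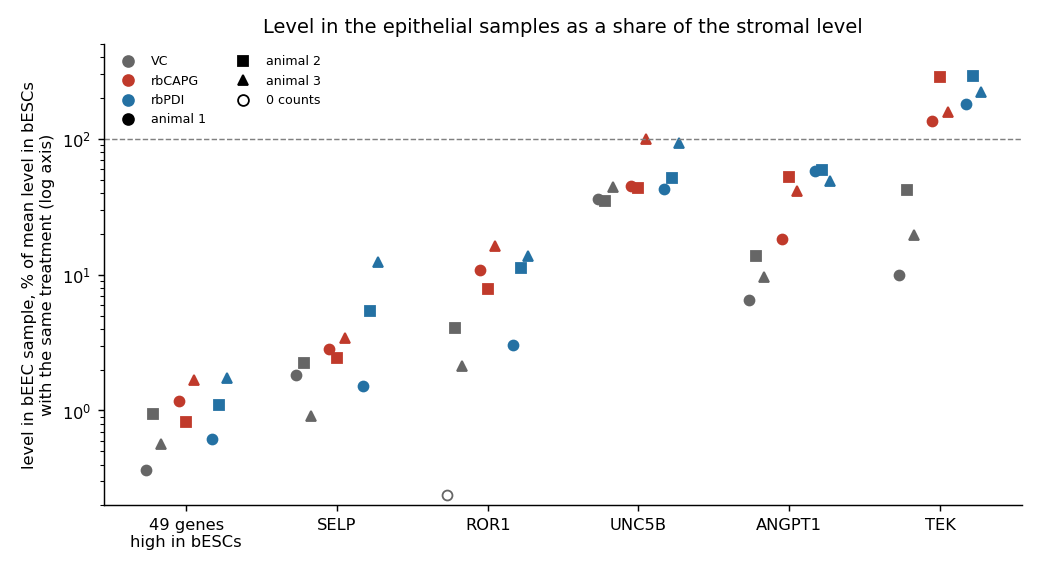
Level of each gene in each of the 9 bEEC samples as a percentage of its mean in bESCs with the same treatment (log axis); colour gives the treatment, shape the animal, the open symbol a sample with 0 counts and the dashed line 100%. The 49 genes high in bESCs, chosen for a low share in bEECs, lie between 0.365% and 1.72%. For these genes and SELP, the bESC mean with rbPDI is lowered by replicate 1, the smallest library. SELP and ROR1 lie partly near them, and TEK exceeds 100% in all 6 treated samples.

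The 5 genes did not share 1 pattern over the 18 samples. After centring each gene on its own mean log2 level, the root mean square difference was smallest between SELP and ROR1 (1.05), the 2 genes with the largest gap between cell types. The next was TEK with UNC5B (1.07), which is more than the spread of either gene about its own mean (0.98 and 0.93). The widest was TEK with SELP (2.75). ANGPT1, the ligand, differed from its receptor TEK by 1.22 and from UNC5B by 1.13.

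Among 185 other genes with a symbol, TSHZ3, a zinc finger transcription factor, was the most like ROR1, with a difference of 0.39, the smallest among all 17926 other genes tested, and EPB41L3 followed at 0.49. Nearest to UNC5B were NFKB2, a subunit of NF-kappaB, at 0.41 and USP20 at 0.44. ANGPT1 was most like DMXL2 (0.67) and CD40 (0.68), a receptor of the TNF receptor family. TEK was most like IL23A (0.68), a cytokine subunit, and PRORP (0.74), and SELP most like FAM110B (0.70) and TMEM176B (0.75). Among all genes tested, IL23A ranked 4 and PRORP 11 in likeness to TEK, whose own spread was 0.98. The symbols come from lists of genes altered by treatment, so a gene outside those lists could not be named.

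Other genes of vessel biology were read from lists, and only genes with an identifier in the study's lists of altered genes could be read, so their counts in bEECs are not independent evidence of a direction. The angiopoietin list of 9 genes held only ANGPT1 and TEK with identifiers, the ROR and Wnt5a list of 7 only ROR1, and the list of 18 netrin, semaphorin and slit guidance genes only UNC5B and NRP2. NRP2, a co-receptor for semaphorins and VEGF, was at 6.81 ± 1.33 CPM in VC bEECs, 13.6 ± 1.95 CPM with rbCAPG and 14.6 ± 0.656 CPM with rbPDI (SD, n = 3 each). It was not called without a block (edgeR adjusted p = 0.174 and 0.0865), and with the block it was called for rbPDI (adjusted p = 0.0293).

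Of 12 genes of selectins, their ligands and endothelial adhesion, 5 could be read, SELP among them, and 2 were called higher in bEECs with each protein, against 0.513% of all genes for rbCAPG and 0.809% for rbPDI. With the block 4 of 5 were called with each, against 2.19% and 2.96%. The median log2 fold change of the 5 was 2.29 with rbCAPG and 2.84 with rbPDI, beside 0.02 and -0.01 over all genes tested. CX3CL1, a chemokine that also acts as a membrane-bound adhesion molecule, had at most 2 counts in any VC bEEC sample. It reached 2.93 ± 0.461 CPM with rbCAPG (edgeR adjusted p = 3.61e-04) and 4.41 ± 1.71 CPM with rbPDI (edgeR adjusted p = 1.28e-04; SD, n = 3 each), at least 31.8-fold and 47.9-fold higher than 3 counts per VC library.

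OLR1, a scavenger receptor for oxidised lipoproteins, rose in bEECs from 1.29 ± 0.578 CPM to 8.46 ± 2.71 CPM with rbCAPG and to 15.9 ± 3.49 CPM with rbPDI (SD, n = 3 each, edgeR adjusted p = 0.0171 and 0.00114). Its level in bESCs was far higher, at 339 ± 207 CPM with VC, 1207 ± 461 CPM with rbCAPG and 1318 ± 624 CPM with rbPDI (SD, n = 3 each). What part RNA from stromal cells had in the OLR1 level of bEECs was not tested. CD47, which signals to phagocytes, and ITGA1, a collagen-binding integrin subunit, had log2 fold changes of 1.15 and 1.28 with rbCAPG and 1.18 and 0.64 with rbPDI, and were not called without a block. With it, CD47 was called with both proteins (adjusted p = 0.0232 and 0.0150) and ITGA1 with rbCAPG (adjusted p = 0.0144). ITGA1 was at 7.83 CPM in VC bEECs against 366 CPM in VC bESCs, and the part of stromal RNA in its bEEC level was not tested either. In bESCs, CX3CL1 was the 1 gene of these lists called without a block, with rbPDI, where 0.178% of all genes tested were called. It was at 0.919 ± 0.747 CPM (SD, n = 3, edgeR adjusted p = 0.0164) against at most 3 counts in any VC sample. With the block, OLR1 (adjusted p = 0.0290), RHOJ (adjusted p = 0.0179) and CSF3 (adjusted p = 5.78e-04) were called with rbPDI as well, where 189 of 17931 genes were called. CX3CL1 (adjusted p = 0.0216) and CSF3 (adjusted p = 0.00129) were called with rbCAPG with the block, where 86 of 17931 genes were. The study's lists, through which these genes were read, cover genes altered in bESCs too.

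Of 16 growth factors, receptors and regulators of vessels, 12 could be read, and all 12 were higher on average with each protein in bEECs, with median log2 fold changes of 1.99 and 1.82. By edgeR 0 were called with rbCAPG and 1 with rbPDI, against 0.513% and 0.809% of all genes, and all 12 had an unadjusted p under 0.05 in both, against 7.21% and 8.34%. The called gene was RAMP3, a receptor partner for adrenomedullin, which had at most 3 counts in any VC bEEC sample and 1.88 ± 1.04 CPM with rbPDI (SD, n = 3, edgeR adjusted p = 0.0259). With the block, 11 and 10 of the 12 were called, against 2.19% and 2.96% of all genes. With VC, 6 of the 12 were called lower in bEECs than in bESCs and 3 higher, where 18.9% of all genes were called lower. Among the lower ones were FGFR1 (4.46 against 53.1 CPM) and HAND2 (0.114 against 5.32 CPM), the latter also a stromal marker above. What part RNA from stromal cells had in the bEEC levels of this list was not tested. FGFR1, a fibroblast growth factor receptor, went from 4.46 ± 0.760 CPM to 11.7 ± 4.95 and 11.2 ± 5.69 CPM (SD, n = 3 each, edgeR adjusted p = 0.120 and 0.105). EDN1, the vasoconstrictor endothelin, went from 37.1 ± 4.53 CPM to 153 ± 52.6 and 142 ± 45.6 CPM (SD, n = 3 each, edgeR adjusted p = 0.0787 and 0.0730).

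Of plasminogen activation, 3 genes were read, and all 3 were higher in bEECs, with median log2 fold changes of 1.76 with rbCAPG and 2.11 with rbPDI. By edgeR 0 of 3 were called with rbCAPG, where 3 of 3 had an unadjusted p under 0.05, and 2 of 3 with rbPDI, against 0.513%, 7.21% and 0.809% of all genes. PLAT, the tissue plasminogen activator, rose by 2.27 on the log2 scale with rbPDI (SE 0.48, edgeR adjusted p = 0.0312). PLAU, the urokinase, rose by 2.11 (SE 0.48, edgeR adjusted p = 0.0496). PLAUR, the urokinase receptor, had a log2 fold change of 1.77 and was not called. With the block, 2 of 3 were called with rbCAPG and 3 of 3 with rbPDI, against 2.19% and 2.96% of all genes.

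Of 8 genes of phosphatidylinositol 3-kinase signalling, which include TEK, UNC5B, SELP and ROR1, 1 was called with rbPDI, TEK, and 0 with rbCAPG, where all 8 had an unadjusted p under 0.05, against 0.809%, 0.513% and 7.21% of all genes. Their median log2 fold changes were 2.00 and 1.92, beside 0.02 and -0.01 over all genes, and 7 of 8 were called with each protein with the block, against 2.19% and 2.96% of all genes. All 8 come from the study's lists of altered genes. PIK3AP1, an adaptor of that kinase, had log2 fold changes of 1.04 and 1.09. CSF3, the granulocyte colony-stimulating factor, had at most 4 counts in any VC bEEC sample and 3.41 ± 0.645 CPM with rbCAPG and 7.47 ± 1.76 CPM with rbPDI (SD, n = 3 each, edgeR adjusted p = 0.146 and 0.0505).

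In bESCs the same lists gave lower medians, 0.65 and 0.61 for the phosphatidylinositol 3-kinase genes, 0.38 and 1.09 for plasminogen activation, -0.02 and 0.12 for the regulators of vessels and 1.48 and 0.88 for adhesion, beside -0.01 and 0 over all genes tested. With RAMP3, which had at most 1 count in any VC bESC sample, set to the floor of 3 counts, the medians of the regulators of vessels were -0.00 and 0.09. Without a block, 0 genes of these lists were called with rbCAPG in bESCs, where 0.0948% of all genes tested were. Since only genes the study lists as altered were read, the gap in medians between cell types is partly fixed by that choice.

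**Figure D5:**
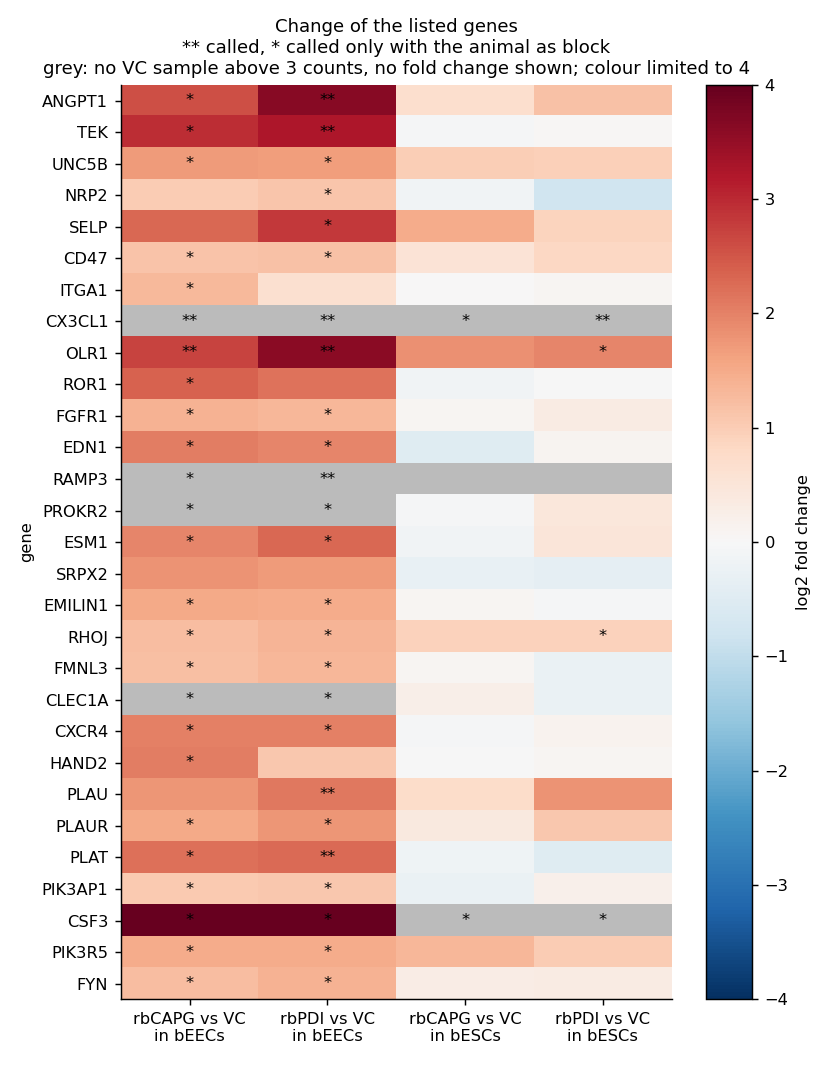
Log2 fold change against VC (colour, limited to 4) of the 29 listed genes with an identifier in the 4 treatment comparisons; double asterisks mark genes called without a block, single asterisks those called only with the animal as a block, and grey cells have no VC sample above 3 counts. The coloured cells of the 2 bEEC columns are all above 0, while the bESC columns hold values on both sides of 0. The genes come from the study's lists of altered genes, so this contrast is partly fixed by that choice.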

How the data were processed

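RNA from 18 samples was sequenced after SMART-Seq amplification. The authors used Trimmomatic for trimming, STAR for alignment to ARS-UCD1.3 and featureCounts for counting on Ensembl genes, dividing multi-mapping and overlapping reads as fractions, with no strand option stated. The deposited values are thus estimated counts (expected counts), not normalized, and 23.3% were not whole. Reads shared by related, overlapping or antisense genes cannot be separated.

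Here, counts were rounded and fitted in R 4.3.3 with edgeR 4.0.16 (TMM, filterByExpr, quasi-likelihood test, 1 mean per group over all 18 samples, 12 residual degrees of freedom), and p-values were adjusted by Benjamini-Hochberg over 17931 genes. A gene was called at adjusted p under 0.05 if its log2 fold change was also beyond 1 in either direction. Levels are CPM with TMM factors and are not per length, so levels were not compared between genes. Each comparison was checked with DESeq2 1.42.0 and other settings, and the procedure was tested on simulated data. All shares given for DESeq2 are over the 29808 genes with a p-value there, without the filter on low counts. They are thus not on the same set as the edgeR shares. Genes that DESeq2's own filtering left without an adjusted p were counted as not called, which lowers the DESeq2 shares. With 3 against 3 samples an exact permutation test cannot give p under 0.1. In the smallest library 3 counts are 2.98e-05% of the total, and in the largest 6.78e-06%, which covers counting error only, since PCR copies are not independent molecules.

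Replicate numbers pair samples because the 2 cell types and 3 treatments of a number come from 1 animal. Deviations from group means correlated with a mean r of 0.481 in bEECs and 0.396 in bESCs (lowest 0.311 and 0.129, 9 pairs each), and the block fit used the number within cell type (8 residual degrees of freedom).

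The 5 genes and the gene lists were chosen with earlier results of these data known. The rule for names was the 5 genes, the called genes of each list plus the first 2 not called, and for each gene the 2 most alike with a symbol, of 190 symbols in 245 listed identifiers. The reference gene table is of another assembly and matched 0 identifiers, so no coordinates or sequences are given. The authors' fold changes and p-values in their lists were not used. An item of the plasminogen activation list is not reported here, and that list was counted without it.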

Additional observations from a re-analysis of the deposited data

How the results depend on the processing

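Counts of called genes moved with the setting far more than the log2 fold changes of the 5 genes, and the cause was not tested. Of the changes of the 5 genes under settings that kept all samples, 322 kept their direction and side of the threshold, 20 newly passed it, 1 no longer passed it and 2 changed sign. Below, counts for rbCAPG and rbPDI in bEECs come first, then in bESCs, then the 2 interactions. With the replicate block (animal), 392, 531, 86, 189, 40 and 79 genes were called, with 4 of the 5 in bEECs for each protein, and the block changed no other call of the 5 genes. With DESeq2, the method of the study's lists, these were 270, 381, 71, 175, 47 and 85 genes, with 5 of 5 in bEECs for each protein. Fitted to 1 cell type alone, 152 and 290 genes were called in bEECs, with 2 and 4 of the 5, and 1 and 1 in bESCs. Without a filter on low counts, 30 and 54 genes were called in bESCs and 23 and 27 in the interactions, rbCAPG called 1 of the 5 in bEECs (ANGPT1), SELP passed with rbPDI (adjusted p = 0.0132), and TEK between cell types did not (adjusted p = 0.0506). ROR1 with rbPDI in bESCs turned from -0.00 to 0.0046 with at least 10 counts in at least 9 samples and to 0.0207 with the block. Leaving out each sample, or all 6 samples of an animal (added after seeing the data), gave 29 to 77 and 43 to 123 called genes in bEECs, 0 to 20 and 0 to 43 in bESCs, and 0 to 12 and 0 to 18 in the interactions. Of the 5, rbPDI in bEECs then called 0 to 2, with 0 without animal 2 or 3, and the cell type comparison 3 to 5, with 3 without VC bEEC replicate 1 or without animal 2 or 3. Several log2 changes changed sign in those fits, most of them near 0 with all samples. The exceptions were SELP between the proteins in bEECs (0.55 with all samples) and the interactions of UNC5B (0.70 and 0.71). In bESCs, TEK ran from -0.75 to 0.88 with rbCAPG and -0.34 to 0.50 with rbPDI, and ROR1 from -0.48 to 0.21 and -0.22 to 0.22. Between the proteins, UNC5B ran from -0.45 to 0.46, ROR1 from -0.56 to 0.22 and SELP from -0.35 to 1.01 in bEECs, and ROR1 from -0.0842 to 0.46, TEK from -0.39 to 0.75 and UNC5B from -0.42 to 0.34 in bESCs. The interaction of UNC5B ran from -0.50 to 1.3 for rbCAPG and from -0.0307 to 1.14 for rbPDI. The values of ANGPT1, TEK and ROR1 rest on few counts, each with at most 9 in any VC bEEC sample. Where a fit left 1 or 2 samples in a group, these were taken to vary like the other groups.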
